A study of Mus musculus with 8 samples.

Results

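Splicing factor and RNA-binding motif genes were described in tongue epithelium of mice in which doxycycline switches on a Bmi-1 transgene. The set was chosen by gene symbol (the Srsf, Hnrnp, Rbm, Sf3a, Sf3b, Snrp, U2af, Prpf, Celf, Mbnl, Esrp and Clk names, with Sf1, Tra2a and Tra2b), and it was proposed with the values of this same contrast in view. It holds 121 of the 15540 genes measured, all of them protein-coding. The KrTB+DOX group had 4 libraries from mice given doxycycline at 2 mg/mL in their water, and the KrTB group had 4 libraries from mice given water alone. Mice of both groups were C57BL/6 and carried K14-rtTA with TRE-FLBmi-1, so the keratin 14 promoter of basal keratinocytes drives the doxycycline-dependent activator in both, and the sources used here give no ages. No group in the labels has doxycycline without the transgenes, so the drug and the transgene cannot be told apart. All values come from the authors' deposited table of this comparison, which gives 1 fold change per gene and 0 columns of values per library, so neither the level in each library nor the depth is known.

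Introns are removed from pre-mRNA by the spliceosome, whose U1 and U2 small nuclear ribonucleoproteins (snRNPs) recognise the 5′ splice site and the branch point before the tri-snRNP joins and the catalytic core forms. SR proteins mostly promote and hnRNP proteins often repress the use of nearby exons, while tissue regulators such as ESRP, MBNL and CELF proteins set cell-type-specific patterns. RBM genes are named for an RNA recognition motif and include spliceosome components as well as proteins of m6A RNA methylation, RNA decay and transcription.

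A positive fold change was read as higher in KrTB+DOX, since Bmi1, a Polycomb subunit and the gene encoded by the transgene, had a log2 fold change of 5.42 in the authors' deposited table. The labelled tissue was checked against its markers. Of 7 epithelial markers 2 were called higher in KrTB+DOX (Trp63 and Epcam) and 0 lower, and 3 of the 7 had fold changes below 0 (Krt13, Krt4 and Cdh1), the whole list running between -0.29 and 0.80. All 10 skeletal muscle markers were measured, with means up to 13.6 log2 CPM (read counts scaled to library size) in the authors' deposited table, so the libraries held muscle RNA, and 0 of them were called in either direction although all 10 had fold changes below 0, with a median of -0.23. Of 8 fibroblast markers 5 were called lower in KrTB+DOX and 0 higher, with a median log2 fold change of -1.04. Of 6 endothelial markers 1 was called lower. Of the markers with a value, 0 of 6 immune, 0 of 5 Schwann cell and 0 of 2 melanocyte ones were called. Below 0 were 4 of the 6 endothelial, 5 of the 6 immune, 3 of the 5 Schwann cell and 1 of the 2 melanocyte markers. The medians of these lists were -0.03, -0.18, -0.43 and 0.19. The part of these cell types in the values below was not tested. In these bulk libraries fewer cells of a type and less RNA per cell cannot be told apart.

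In all, 6 genes of the set passed the threshold, an adjusted p under 0.05 by limma with Benjamini-Hochberg adjustment over all genes. Promoters of 3 of these 6 are shown because RefSeq and GENCODE place their starts close together, and the window runs from 250 bases before to 50 after the RefSeq start. They are RefSeq sequences of build GRCm38.p6 on the gene's strand, written 5′ to 3′, and capitals mark every match to the motifs named after them.
Rbm14 (chr19:4811585-4811884, minus strand): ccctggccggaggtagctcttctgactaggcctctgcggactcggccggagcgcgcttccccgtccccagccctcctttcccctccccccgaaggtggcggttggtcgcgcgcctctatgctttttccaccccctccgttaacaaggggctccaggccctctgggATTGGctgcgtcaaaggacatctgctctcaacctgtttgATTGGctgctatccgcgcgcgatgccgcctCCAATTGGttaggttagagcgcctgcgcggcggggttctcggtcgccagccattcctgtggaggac
Rbm7 (chr9:48495281-48495580, minus strand): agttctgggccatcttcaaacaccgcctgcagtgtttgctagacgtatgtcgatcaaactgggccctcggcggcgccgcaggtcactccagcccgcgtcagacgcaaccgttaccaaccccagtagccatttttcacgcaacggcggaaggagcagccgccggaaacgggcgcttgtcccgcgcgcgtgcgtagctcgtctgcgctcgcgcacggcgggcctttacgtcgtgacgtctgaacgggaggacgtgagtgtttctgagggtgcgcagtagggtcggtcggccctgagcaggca
Sf3a1 (chr11:4160104-4160403, plus strand): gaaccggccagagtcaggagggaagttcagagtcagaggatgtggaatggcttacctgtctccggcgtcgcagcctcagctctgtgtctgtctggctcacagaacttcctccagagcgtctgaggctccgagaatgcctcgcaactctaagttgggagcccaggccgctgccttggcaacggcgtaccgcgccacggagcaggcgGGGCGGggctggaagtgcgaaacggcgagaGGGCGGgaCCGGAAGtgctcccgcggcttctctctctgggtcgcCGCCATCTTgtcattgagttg
Each motif was searched on both strands. The CCAAT box, bound by NF-Y, was searched as CCAAT. For ETS factors the letters were CCGGAAG. The GC box of SP factors was searched as GGGCGG. For the E-box of basic helix-loop-helix factors the letters were CACGTG. The YY1 motif was searched as AAGATGGCG. For the cyclic AMP response element the letters were TGACGTCA. The Rbm14 window held 4 CCAAT matches, of which 2 overlap each other on opposite strands, and none of the other motifs. In the Sf3a1 window there were 1 ETS, 2 GC box and 1 YY1 matches. The Rbm7 window held none of the 6 motifs. For Rbm15 (2 CCAAT and 1 GC box match) and Rbm15b (3 GC box, 2 E-box and 1 YY1 match) the RefSeq start lies inside the GENCODE gene. Over the 144 promoter entries of the 101 members that had one, the ETS letters were present in 21.5%, against 15.3% of 14347 promoters of genes in the authors' table and 8.86% of all 32851 promoters. The CCAAT letters were present in 45.1% of member promoters, against 36.9% and 37.4%, and the GC box in 56.9%, against 59.4% and 35.7%. For the E-box the shares were 11.1%, against 9.44% and 7.15%, for YY1 2.08%, against 2.59% and 1.40%, and for the cyclic AMP response element 5.56%, against 2.91% and 1.79%. Median GC content was 60.0% over member promoters and 60.3% over promoters of genes in the table. A match is a string of letters and was not tested as a binding site.

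Most members lay slightly above 0 in KrTB+DOX, and few passed the threshold. Of the 121 members 6 were called higher in KrTB+DOX (4.96%), 0 were called lower and 115 were not called. Over all genes 8.13% were called in either direction, 3.82% higher and 4.31% lower. At an unadjusted p under 0.05 by the same limma fit, 23 members were higher (19.0%) and 5 lower (4.13%), against 12.3% higher and 12.99% lower over all genes. In either direction together this was 23.1% of members and 25.2% of all genes. A fold change above 0 was found for 90 of 121 members (74.4%), against 48.8% of all genes. The median log2 fold change of the members was 0.10, against -0.01 over all genes, and the middle 50% of members lay between -0.004 and 0.18. These counts and medians are the values on which the set was proposed and carry no test. Changes beyond 0.5 on the log2 scale were found in 3 members (2.48%), against 13.5% of all genes, and the 3 were Celf3, Celf6 and Celf4. The standard error (SE) of the fold change, computed from the table's moderated t, had a median of 0.08 in members and 0.12 in all genes. For 108 of 121 members (89.3%) the 95% confidence interval lay wholly within a 1.5-fold change either way, against 63.2% of all genes. The median of their mean expression was 5.68 log2 CPM, against 4.24 over all genes, without correction for transcript length.

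**Figure D1:**
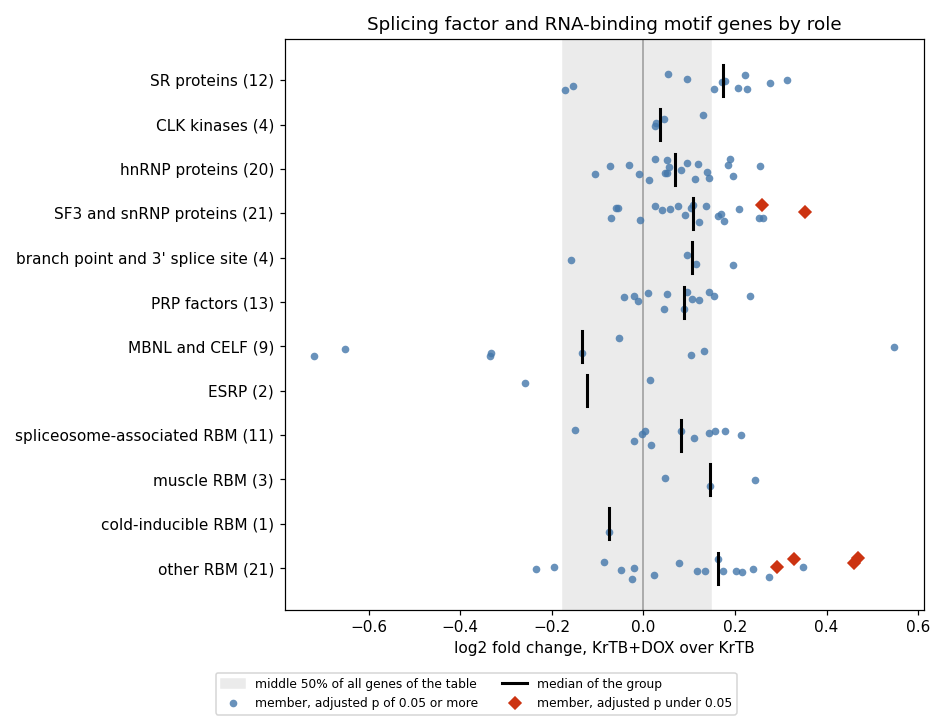
Log2 fold change, KrTB+DOX over KrTB, of each of the 121 members (points) in 12 groups by role, with the number of members in brackets, the group median as a black bar and the middle 50% of all genes as a grey band. The 6 members with an adjusted p under 0.05 (red diamonds) all lie above 0, 4 of them in the last group of RBM genes and 2 among the SF3 proteins.

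Among the called members 4 were RBM genes that act mainly outside the spliceosome core, and 2 of them had the largest changes. Rbm15, an RNA-binding adaptor of the complex that writes m6A on RNA, had a log2 fold change of 0.47 ± 0.08 (SE) and an adjusted p of 0.00995 by limma in the authors' deposited table, a 1.38-fold higher level in KrTB+DOX. Its paralog Rbm15b, which serves the same complex, had 0.29 ± 0.06 and an adjusted p of 0.0265 per the authors' deposited table, a 1.22-fold higher level. The pair thus moved in the same direction. Rbm14, a transcriptional coactivator also found in paraspeckles, had 0.46 ± 0.07 and an adjusted p of 0.00711 per the authors' deposited table, or 1.37-fold. Rbm7, the RNA-binding subunit of the nuclear exosome targeting complex that hands transcripts to the RNA exosome for decay, had 0.33 ± 0.06 and an adjusted p of 0.0133 per the authors' deposited table, or 1.26-fold. Mean levels over both groups, per kilobase of transcript, were 2.60 log2 CPM per kb for Rbm14, 2.13 for Rbm15, 4.14 for Rbm7 and 3.12 for Rbm15b.

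The other 2 called members belong to SF3A and SF3B, the protein complexes with which the U2 snRNP holds the branch point. Sf3b4 had a log2 fold change of 0.35 ± 0.09 and an adjusted p of 0.0354 by limma in the authors' deposited table, a 1.28-fold higher level in KrTB+DOX. Sf3a1 had 0.26 ± 0.07 and an adjusted p of 0.0412 per the authors' deposited table. Tested against a 1.2-fold change instead of against 0, 0 of the 6 were called. The adjusted p of this test was 0.251 for Rbm14, 0.291 for Rbm15 and larger for the others. Missing it does not show that a change is under 1.2-fold. Sf3a1 was no longer called once a trend of fold change on mean expression was removed (adjusted p = 0.0513), nor was Rbm15b once a trend on GC content and length was removed (adjusted p = 0.0505).

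**Figure D2:**
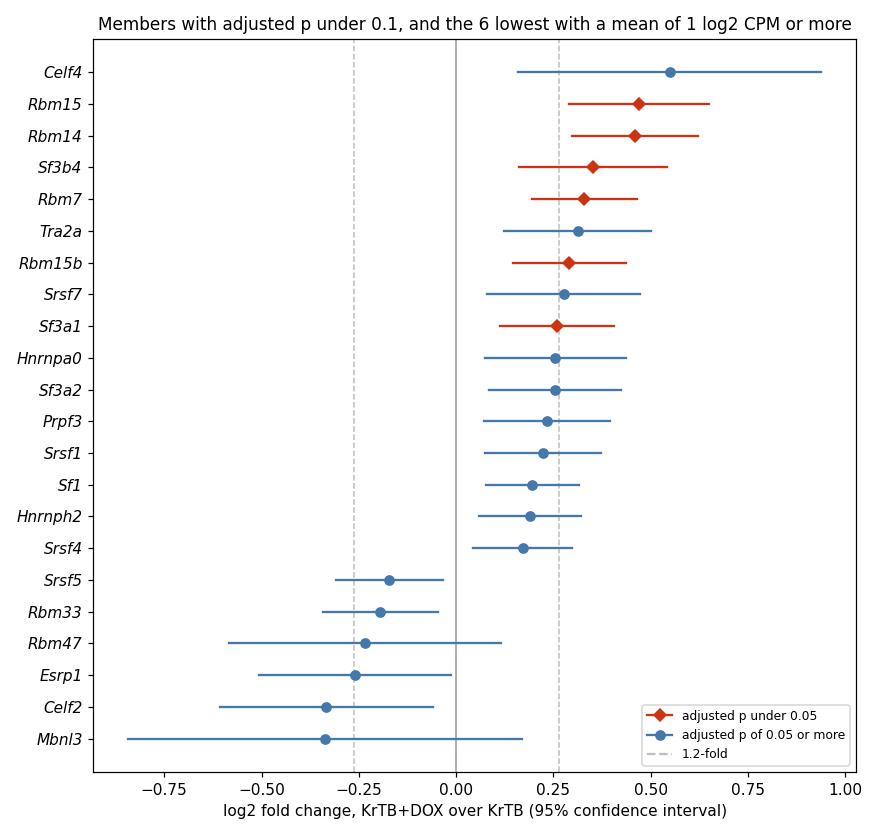
Log2 fold change with its 95% confidence interval for the 16 members with an adjusted p under 0.1 and the 6 members with the lowest fold changes once means under 1 log2 CPM are left out, dashed lines marking 1.2-fold either way. Intervals of Rbm14 and Rbm15 lie wholly to the right of the 1.2-fold line before any adjustment, and the other 4 called members (red) reach across it.

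Where the called genes lie bears on how their reads are counted, since the sources used here give no strand setting for the counting. In GENCODE M21 on GRCm38, Rbm14 (ENSMUSG00000006456.10) spans chr19:4800569-4811634 and overlaps Gm21992 on the same strand and Gm21844 on the opposite one. Gm21992 had a log2 fold change of -0.31 and an adjusted p of 0.314 by limma in the authors' deposited table, opposite in sign to Rbm14. Rbm15b (ENSMUSG00000074102.4), a gene with 1 exon at chr9:106880918-106887428, overlaps Manf on its strand and Dcaf1 on the other. Manf had 0.37 and an adjusted p of 0.0930 per the authors' deposited table, so both genes of this overlap lay above 0. Sf3b4 (ENSMUSG00000068856.3, chr3:96172332-96177564) overlaps Gm17690 on the opposite strand, which had -0.06 and an adjusted p of 0.824 per the authors' deposited table. Gm21844 and Dcaf1 were not analysed here. No annotated gene has exons that overlap those of Rbm15 (ENSMUSG00000048109.10, chr3:107325421-107333673), Rbm7 (ENSMUSG00000042396.10, chr9:48488701-48495299) or Sf3a1 (ENSMUSG00000002129.11, chr11:4160350-4182541). Overlap was counted between exons only, so genes within introns were not looked for.

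Beside these 2 called genes, no other protein of the U2 snRNP or the Sm ring passed the threshold. Of the 21 SF3 and Snrp genes 17 had fold changes above 0, with a median of 0.11. Of these 21, 2 were called higher (9.52%, against 3.82% of all genes) and 0 lower. All 3 SF3A genes were above 0, and Sf3a2 had 0.25 with an adjusted p of 0.0702 by limma in the authors' deposited table. Among 6 SF3B genes the range ran up to Sf3b4, while Sf3b1, the scaffold subunit that clamps the branch helix, had -0.01 (95% interval -0.17 to 0.16) and Sf3b2 0.04, from the authors' deposited table. So members of 1 complex differed in fold change, although no difference between them was tested. Of 12 Snrp genes, which encode Sm ring proteins and the U1 and U2 specific proteins, 9 were above 0, their median was 0.11, and 0 were called by limma, or at an unadjusted p under 0.05.

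At the branch point and 3′ splice site, Sf1, the protein that first binds the branch point sequence, had a log2 fold change of 0.20 ± 0.05 and an adjusted p of 0.0519 by limma in the authors' deposited table. It lay just outside the threshold and passed it when fold changes were centred on the median of all genes (adjusted p = 0.0467), when the trend on mean expression was removed (0.0473) or when genes with a mean under 1 log2 CPM were left out (0.0492). U2af1 and U2af2, the subunits that bind the 3′ splice site and the pyrimidine tract before it, had 0.12 and 0.10, with adjusted p-values of 0.286 and 0.395 in the authors' deposited table. Neither U2AF subunit passed the threshold, and the 95% interval of each included 0. Of the 13 PRP factors 10 were above 0, with a median of 0.09 and 0 called by limma (2 higher and 0 lower at an unadjusted p under 0.05). Prpf3, a protein of the U4/U6 snRNP, came closest, at 0.23 ± 0.07 with an adjusted p of 0.0782 per the authors' deposited table. Prpf8, which forms the catalytic cavity, had 0.05 and Prpf19, a ubiquitin ligase of the activated spliceosome, -0.01 in the authors' deposited table, and both 95% intervals included 0.

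SR proteins were the group with the highest median among those with at least 4 members and no called gene. Of 12 genes 10 were above 0, with a median log2 fold change of 0.17. None of the 12 was called by limma, while 6 were higher and 2 lower at an unadjusted p under 0.05. Tra2a, an SR-like activator of exons, had 0.31 ± 0.08 and an adjusted p of 0.0510 per the authors' deposited table. Srsf7 had 0.28 ± 0.09 (adjusted p = 0.0849 by limma) and Srsf1, the founding SR protein, 0.22 ± 0.07 (adjusted p = 0.0704) in the authors' deposited table. Srsf5, the SR gene with the highest level per kilobase of transcript (7.6 log2 CPM per kb), lay below 0, at -0.17 ± 0.06 with an adjusted p of 0.116 per the authors' deposited table. Srsf2 had 0.09 with an adjusted p of 0.334 per the authors' deposited table. For all 12 genes the 95% interval excluded a change of 1.5-fold. CLK kinases phosphorylate SR proteins and so control their movement and activity. Clk1, Clk2, Clk3 and Clk4 had log2 fold changes of 0.05, 0.13, 0.02 and 0.03 in the authors' deposited table. None of the 4 had an unadjusted p under 0.05 by limma, and every interval included 0.

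Of the 20 hnRNP genes 16 were above 0, with a median of 0.07 and 0 called by limma (4 higher and 0 lower at an unadjusted p under 0.05). Hnrnpa0, which binds AU-rich elements of mRNAs, had 0.25 ± 0.08 and an adjusted p of 0.0848 per the authors' deposited table. Hnrnph2, of the family that binds runs of G, had 0.19 ± 0.06 and an adjusted p of 0.0774 per the authors' deposited table. Hnrnpll, best known for switching CD45 exons in lymphocytes, had 0.20 ± 0.07 with an adjusted p of 0.105 per the authors' deposited table. These 3 had the largest hnRNP fold changes. Hnrnpa2b1, with the highest level per kilobase of all members at 8.43 log2 CPM per kb, had 0.05 (95% interval -0.12 to 0.22), and Hnrnpu, a nuclear scaffold protein, 0.08, from the authors' deposited table. For all 20 the interval excluded a change of 1.5-fold.

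**Figure D3:**
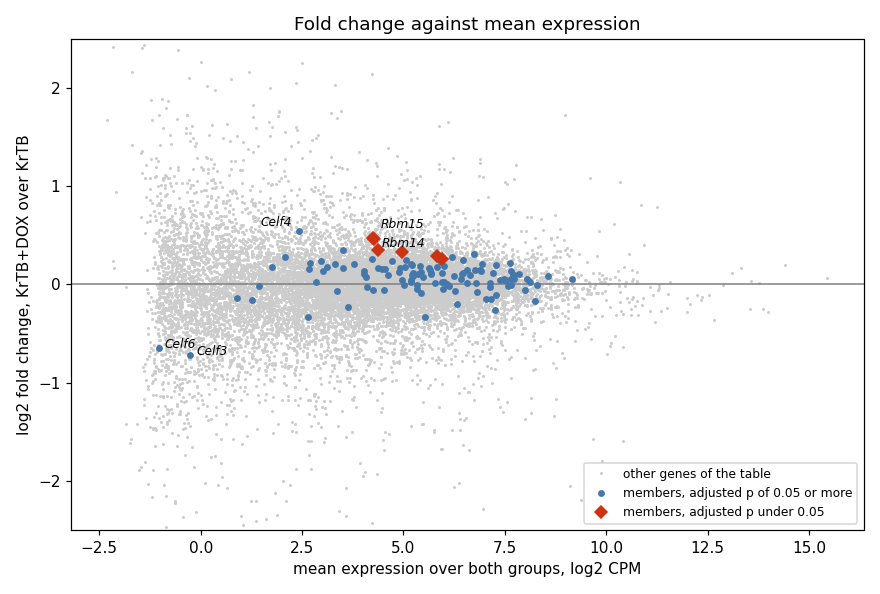
Log2 fold change, KrTB+DOX over KrTB, against mean expression in log2 CPM for the members (blue, called ones red) and the other genes (grey), with 78 genes beyond 2.5 either way not drawn. Most members lie in a narrow band around and slightly above 0. At the lowest means Celf3 and Celf6 lie at -0.72 and -0.65, and Celf4, at a mean of 2.43, lies at 0.55.

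The MBNL and CELF genes were the group that spread most. Their median SE was 0.17, against 0.08 over all members, and their median mean 2.65 log2 CPM, against 5.68. MBNL proteins drive adult splicing patterns, in muscle above all, and CELF proteins often act on the same exons in the opposite sense. Of the 9 genes 3 were above 0 and the median was -0.14, with 0 called by limma (1 higher and 1 lower at an unadjusted p under 0.05). Celf4, chiefly known from neurons, had the largest positive log2 fold change of all members, 0.55 ± 0.17, at a mean of 2.43 log2 CPM and an adjusted p of 0.0839 per the authors' deposited table. Celf2 had -0.33 ± 0.12 with an adjusted p of 0.124, and Celf1, the widely expressed member, 0.13 with an adjusted p of 0.302 per the authors' deposited table. The CELF genes thus lay on both sides of 0. Celf3 (-0.72) and Celf6 (-0.65) had the lowest fold changes of all members but means of only -0.25 and -1.03 log2 CPM in the authors' deposited table, and adjusted p-values of 0.370 and 0.480. Mbnl1 and Mbnl2 had -0.05 and 0.10, and Mbnl3, at 1.49 log2 CPM per kb well below the 5.50 of Mbnl1 and the 5.68 of Mbnl2, had -0.34 ± 0.23, with adjusted p-values of 0.579, 0.550 and 0.387 in the authors' deposited table. For 3 of the 9 genes the 95% interval excluded a change of 1.5-fold, so larger changes in the other 6 were not excluded by these data.

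Esrp1 and Esrp2 are the epithelial splicing regulators, and enforce epithelial isoforms of FGF receptors and adhesion proteins. Esrp1 had a log2 fold change of -0.26 ± 0.11 and an adjusted p of 0.176 by limma in the authors' deposited table, and Esrp2 had 0.01 ± 0.13 and an adjusted p of 0.962. Neither passed the threshold. The 3 RBM genes known from striated muscle were above 0, with 0 called by limma and 0 at an unadjusted p under 0.05. Rbm20, the regulator of titin splicing, had 0.05, Rbm24, a factor of muscle differentiation, 0.14 and Rbm38, also a p53 target, 0.24 ± 0.11, with adjusted p-values of 0.814, 0.536 and 0.212 in the authors' deposited table. Rbm3, induced by cold, had -0.08 with an adjusted p of 0.711 per the authors' deposited table.

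Of the 36 RBM genes together 26 were above 0 (72.2%, against 48.8% of all genes), with a median of 0.13. Of these 36, 4 were called higher (11.1%, against 3.82% of all genes) and 0 lower. The 11 associated with the spliceosome or the exon junction had a median of 0.08 and 0 calls by limma (1 higher and 0 lower at an unadjusted p under 0.05). Rbm10, a repressor of exon inclusion, had 0.21 ± 0.08 with an adjusted p of 0.133, and Rbmx 0.14 with 0.287, in the authors' deposited table. Rbm25 and Rbm39, cofactors of alternative splicing, had -0.15 and -0.02 with adjusted p-values of 0.225 and 0.855 in the authors' deposited table. The 21 remaining RBM genes had a median of 0.16 and all 4 RBM calls. Outside these 4 calls, Rbm12 had 0.35 ± 0.13 with an adjusted p of 0.119 per the authors' deposited table. Rbm33 had -0.19 ± 0.07 with an adjusted p of 0.10, and Rbm47, a cofactor of C-to-U RNA editing, -0.23 ± 0.16 with 0.382, in the authors' deposited table. Among these genes, Rbm4 and Rbm4b, Rbm12b1 and Rbm12b2, and Rbmx and Rbmxl1 are close copies, and reads shared between them make their separate values uncertain.

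Splicing genes outside the symbol pattern were counted from a list of 112, of which 109 had a value. None was called by limma, against 8.13% of all genes in either direction. At an unadjusted p under 0.05, 12 were higher (11.01%) and 5 lower (4.59%), against the 12.3% and 12.99% of all genes. Of the 109 genes 69 were above 0 (63.3%), with a median of 0.06, and the interval of 102 excluded a change of 1.5-fold. With the trend on GC content and length removed 2 passed, Bud31 (adjusted p = 0.0347) and Smndc1 (adjusted p = 0.0448), both above 0. Picked after their values were seen, Bud31, a protein of the activated spliceosome, had 0.22 and Smndc1, a relative of SMN, 0.22 in the authors' deposited table. Rbfox2, a regulator of alternative exons, had -0.31 with an adjusted p of 0.0578 by limma, and Srpk3, the muscle SR protein kinase, -0.38 with 0.0668, in the authors' deposited table. The genes nearest the threshold in this list therefore lay on both sides of 0.

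Many splicing factors tune their own level through transcripts that nonsense-mediated decay removes, and the annotation of the set was examined for this. In GENCODE M21, 57 of the 121 members (47.1%) had an annotated decay-targeted transcript, against 27.1% of 13787 protein-coding genes of the table, and 88 (72.7%) had a retained-intron transcript, against 56.7%. The median was 7 annotated transcripts per member, against 5. Members with a decay-targeted transcript had a median log2 fold change of 0.09, with 1 of 57 called, and those without one 0.11, with 5 of 64 called. Among all protein-coding genes, 119 of 3734 with such a transcript were called higher and 146 lower. Without one, 442 of 10053 were called higher and 473 lower. Members with a retained-intron transcript had a median of 0.08, with 4 of 88 called, and those without one 0.15, with 2 of 33 called. For all protein-coding genes the calls were 283 higher and 325 lower of 7811 with a retained-intron transcript. They were 278 higher and 294 lower of 5976 without one. Median transcript length was 2787 bases in members and 3028 in all protein-coding genes, and median GC content 47.1% and 50.6%. By number of coding exons the members differed more. The 16 with 1 to 3 coding exons had a median of 0.21, with 14 above 0 and 3 called (Rbm14, Rbm15 and Rbm15b). The 43 with 4 to 8 had a median of 0.14 and 2 calls, the 31 with 9 to 13 a median of 0.05 and 0 calls, and the 31 with 14 or more a median of 0.05 and 1 call. In all protein-coding genes the medians of the same 4 classes were -0.007, -0.007, -0.0009 and -0.004. With 1 to 3 coding exons, 48.9% of these genes were above 0, and 113 of 2358 were called higher and 109 lower. With 4 to 8 the calls were 187 higher and 208 lower of 4616. With 9 to 13 they were 127 and 116 of 2993, and with 14 or more 134 and 186 of 3820. The exon classes also differed in expression, with median means of 4.26, 5.33, 5.77 and 6.43 log2 CPM, and the part of this in the fold changes was not tested.

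**Figure D4:**
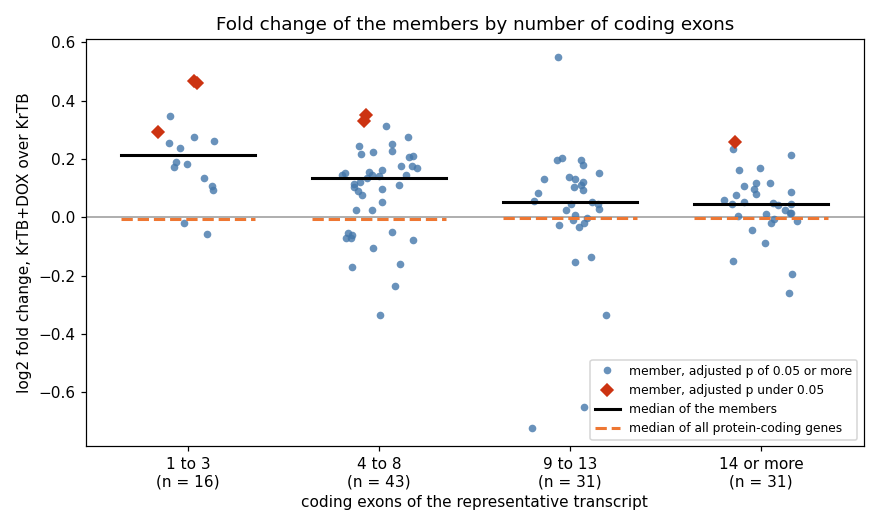
Log2 fold change, KrTB+DOX over KrTB, of the members by number of coding exons (points, called ones as red diamonds), with the median of the members as a black bar and that of all protein-coding genes of the class as a dashed orange line. The member medians are 0.21, 0.14, 0.05 and 0.05 from the fewest to the most coding exons, while the dashed lines stay near 0.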

How the data were processed

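Poly(A)-selected, stranded RNA libraries of mouse tongue epithelium were sequenced as paired reads of 51 bp, per the labels' protocols. Build GRCm38 and the tools STAR 2.5.2b, HTSeq 0.11.2, bcl2fastq 2.20 and cutadapt stand in the submitters' processing notes, without settings. The only values are in 1 table that the authors deposited, with 15540 genes and limma's columns per the file headers. The authors' fold change and mean expression are on the log2 scale, the mean being read as log2 CPM because its antilogs sum to 985251. The deposited moderated t and B are scores, and p-values and Benjamini-Hochberg adjusted p-values come with them, as the authors deposited them. The sources used here give no design formula, limma version or low-count filter. Depth per library is unknown, so no counting interval can be given.

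SE was computed as fold change divided by t, and 95% intervals from the 9.76 degrees of freedom that t and p imply. The recomputed adjustment differed by at most 6.4e-15. Members were taken by symbol and grouped into 12 roles. Members and lists were chosen with earlier results of these data known, and no list was tested. The design had allowed for counts per library, which a comparison table does not hold, so the deposited limma statistics were used. The alternatives were centring, removing lowess trends (span 0.3) on mean or on GC content and length, a 1.2-fold null, other thresholds, dropping means under 1 log2 CPM, leaving out pseudogenes and, added after seeing the data, leaving out members that overlap another gene on the same strand. The calls, the 1.2-fold test and the trend removal on the mean were tested on simulated fold changes with known answers, drawn at the deposited SEs. GENCODE M21 gave gene models and RefSeq the promoters, and 19 further annotated symbols of the pattern (8 protein-coding) were not analysed here. Named are the called members, the 6 largest changes each way with means under 1 log2 CPM dropped, up to 3 members with the smallest p and the 2 highest means of every role, and the ESRP, CLK, MBNL, SF1 and U2AF genes. Others named were chosen after their values were seen. The labels describe the 4 libraries per group as biological replicates. Python 3.11.15 with pandas 2.3.3, scipy 1.17.1 and statsmodels 0.14.6 was used.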

Additional observations from a re-analysis of the deposited data

How the results depend on the processing

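The table holds 1 comparison without values per library, which limits what could be varied: no library could be left out. No paired analysis was possible because the columns carry no library values and the labels pair no libraries. The 6 members called higher became 0 against a 1.2-fold change, 16 at an adjusted p under 0.1 and 2 at an adjusted p under 0.01. They became 8 with centring, 6 with the trend on mean expression removed, 9 with the trend on GC content and length removed and 8 with means under 1 log2 CPM dropped. Without pseudogenes they stayed 6, which was fixed in advance because all members are protein-coding. Without the same-strand overlaps they became 4, since that setting only removes members and leaves each adjusted p as it was. Under any of these, 0 members were called lower. The median stayed between 0.09 and 0.12 in every alternative that recomputed it. Beside Sf1, Tra2a passed with centring (adjusted p = 0.0477), with the GC and length trend removed (0.0347) and with low means dropped (0.0484), and Hnrnph2 (0.0439), Srsf1 (0.0447) and Srsf7 (0.0465) passed with that same trend removed. Over all 121 members the sign turned for 1 with centring, 5 with the trend on mean removed and 12 with the trend on GC content and length removed, leaving 91, 91 and 96 above 0. Of the members named by rule, 5 near 0 turned. With the trend on mean removed, Prpf19 had 0.000351 and Sf3b1 0.0169. With the trend on GC content and length removed, Sf3b1 had 0.0183, Rbm39 0.0139, Esrp2 -0.0217 and Clk3 -0.0286. The cause was not tested.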

Other observations

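Partners of the called RBM proteins were looked at after the values of the set had been seen, so they are a description. Of 9 genes of the m6A writer complex and its readers 8 had fold changes above 0 and 1 was called (11.1%, against 8.13% of all genes). The called gene was Ythdf2, a cytoplasmic reader that brings methylated mRNA to decay. Ythdf2 had a log2 fold change of 0.32 ± 0.07 and an adjusted p of 0.0214 by limma in the authors' deposited table. Cbll1, a writer subunit, had 0.33 ± 0.09 with an adjusted p of 0.0572, while the catalytic subunit Mettl3 had 0.12 with 0.283 and Mettl14 0.08 with 0.540, in the authors' deposited table. Thus the adaptor genes Rbm15 and Rbm15b passed the threshold and Mettl3 and Mettl14 did not, and the difference between them was not tested. With the trend on GC content and length removed, Cbll1 passed (adjusted p = 0.0400) and Rbm15b did not (adjusted p = 0.0505). Of 5 genes of nuclear RNA decay all were above 0, between 0.06 and 0.17, and 0 were called by limma or at an unadjusted p under 0.05. They cover the nuclear exosome, its Rbm7-containing targeting complex and Zfc3h1 (0.17), which is a subunit of neither. Zcchc8, the scaffold that holds Rbm7, had 0.11 with an adjusted p of 0.331 per the authors' deposited table. Of 4 paraspeckle genes 0 were called by limma or at an unadjusted p under 0.05, and Neat1, the RNA on which paraspeckles form, had 0.04 with an adjusted p of 0.80 per the authors' deposited table.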
